A study of Mus musculus with 79 samples.

Results

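The genes described here encode 6 adipokines, which are proteins that fat cells release into the blood: *Lep* (leptin), *Adipoq* (adiponectin), *Retn* (resistin), *Cfd* (complement factor D, also called adipsin), *Rarres2* (chemerin) and *Rbp4* (retinol binding protein). They were chosen by name, as the rows of the array table whose gene symbol is a member, and were 6 of 22335 gene symbols on the array. Each had 1 of the 35556 probesets, so no probeset had to be chosen over another. RNA came from the quadriceps, the large muscle at the front of the thigh, of male mice of the BXD family of inbred strains, bred from the strains C57BL/6J and DBA/2J, and of these 2 parental strains. One group was kept on chow (CD) and the other received a high fat diet (HFD) from 8 weeks of age. Both were fasted overnight and killed at 29 weeks. The 79 arrays, Affymetrix Mouse Gene 1.0 ST, comprised 42 on CD and 37 on HFD. Each held RNA pooled from about 5 animals of a strain under that diet. Arrays are thus the replicates, and a single strain has no error of its own. An array on each diet was present for 37 strains, and 5 strains had a CD array alone.

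Leptin is secreted in proportion to fat mass and acts on the brain to restrain feeding. Adiponectin favours fatty acid oxidation and insulin action in muscle and liver, resistin opposes insulin action in mice, adipsin is the protease that starts the amplification loop of the alternative complement pathway, chemerin attracts immune cells and influences fat cell formation, and retinol binding protein carries vitamin A in blood and is made mainly by liver and also by fat. Muscle fibres are not the usual source of leptin, adiponectin, resistin or adipsin. A dissected muscle holds fat cells between its fibres and at its surface, and their RNA is part of such a pool. In bulk RNA, fewer cells of a type and less RNA per cell cannot be told apart.

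The defining genes of muscle were high. The mean of 11 muscle fibre markers lay between 13.779 and 14.292 on every array, on a scale where the mean of any array is 8.0 units and its SD is 2.0. Values are scores of a log-type measure whose base is not known, so differences are given in score units and never as folds, and the level of a gene is not set against that of another. Strain BXD63 stood apart. Its difference between diets over all probesets correlated with the mean difference of the other strains at r = -0.279, whereas the other 36 strains had an r above 0 (median over all 37, 0.369), so its labels may not match its diets. Its adipokine scores ran as in most strains for *Lep*, *Adipoq* and *Retn*, which were higher in the array labelled HFD by 1.26, 1.10 and 1.46 units, as was the mean of 16 adipocyte markers (0.55), while *Cfd* differed by -0.09. In 3 arrays (BXD51 on CD and on HFD, and BXD66 on CD) albumin, a liver transcript, reached 11.50, 11.64 and 11.59 units against at most 9.03 on any other array. Results were therefore also computed without BXD63, and without BXD51 and BXD66. The 4 adipokines that passed the diet test did so under both.

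The promoters of the 3 adipokine genes with the largest difference between diets are shown, since these moved by different amounts and in different directions. Each is 250 bases before to 50 bases after the annotated start, 5′ to 3′, from RefSeq on GRCm38.p6. Capitals mark matches to 4 motifs searched on both strands: TATAA (the TATA box), TTGCNNAA (a core of sites for C/EBP factors, which act in fat cell formation), CCAAT, and AGGTCA (a core of sites for nuclear receptors such as PPARG). *Lep* lay at chr6:29059971-29060270 on the plus strand, *Adipoq* at chr16:23146286-23146585 on the plus strand, and *Cfd* at chr10:79890603-79890902 on the plus strand.
Lep: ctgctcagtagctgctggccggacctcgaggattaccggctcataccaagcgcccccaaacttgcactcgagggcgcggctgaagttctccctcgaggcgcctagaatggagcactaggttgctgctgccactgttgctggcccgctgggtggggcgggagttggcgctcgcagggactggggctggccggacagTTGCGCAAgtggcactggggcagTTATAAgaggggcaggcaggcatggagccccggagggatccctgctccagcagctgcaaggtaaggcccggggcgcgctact
Adipoq: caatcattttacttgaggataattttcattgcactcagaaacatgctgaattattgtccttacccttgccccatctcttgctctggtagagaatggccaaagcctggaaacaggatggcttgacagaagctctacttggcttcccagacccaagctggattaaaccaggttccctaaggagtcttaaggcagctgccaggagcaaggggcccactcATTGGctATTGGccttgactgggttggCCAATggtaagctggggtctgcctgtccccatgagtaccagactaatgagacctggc
Cfd: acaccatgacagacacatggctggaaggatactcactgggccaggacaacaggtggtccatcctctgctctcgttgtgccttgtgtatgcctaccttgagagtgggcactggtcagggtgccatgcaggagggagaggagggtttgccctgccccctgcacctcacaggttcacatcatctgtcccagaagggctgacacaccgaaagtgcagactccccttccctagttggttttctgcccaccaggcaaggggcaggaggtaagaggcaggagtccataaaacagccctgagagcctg
The *Lep* promoter held TTGCGCAA at -55 and a TATA match at -31, which overlaps a match on the other strand at -32. The *Adipoq* promoter held CCAAT on either strand at -34, -27 and -7. The *Cfd* window held none of the 4, and neither did that of *Retn*. Of all 32851 promoters of this length, 24.9% held TATAA, 10.8% TTGCNNAA, 37.4% CCAAT and 16.3% AGGTCA on either strand, so these matches are common and describe the windows only.

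Between diets, 4 of the 6 adipokine transcripts passed the test. *Lep*, *Adipoq* and *Rarres2* rose in HFD and *Cfd* fell, while *Retn* and *Rbp4* did not pass. The test was limma fitted to all 79 arrays with terms for diet and batch, with Benjamini-Hochberg adjustment over 35556 probesets and a threshold of 0.05. Of all probesets, 38.1% passed it, 18.9% higher and 19.3% lower in HFD. The median difference of the 6 transcripts was 0.21 units, against -0.00 over all probesets.

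**Figure D1:**
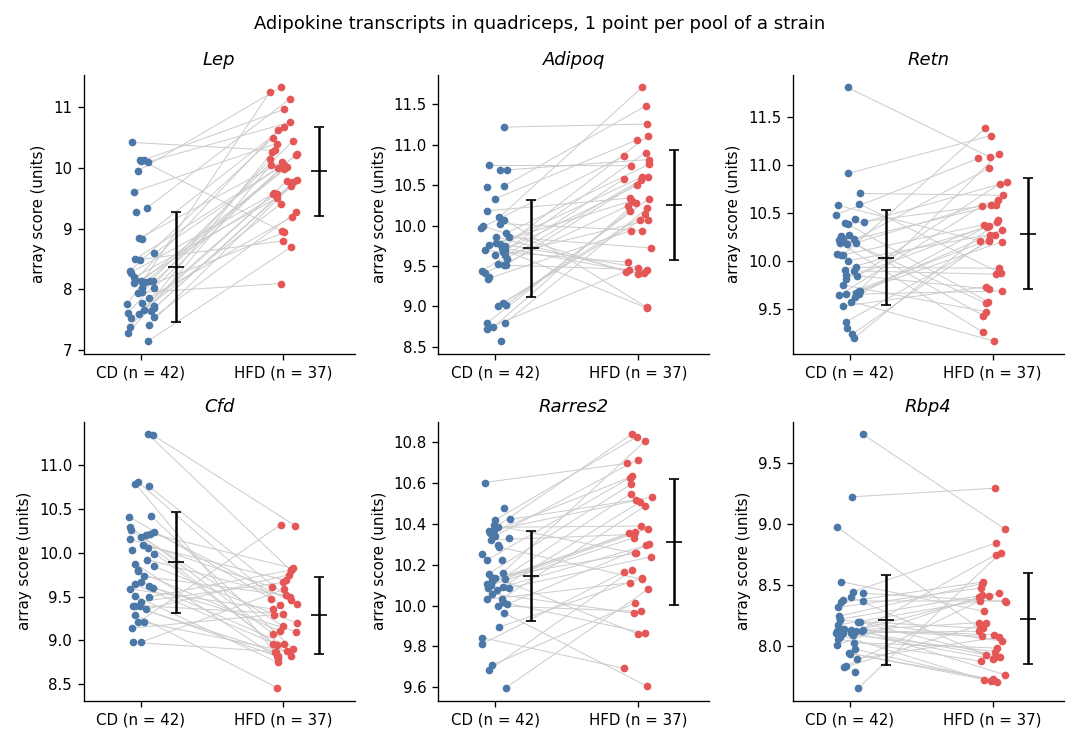
Array score (units) of each adipokine transcript on CD (blue, n = 42) and HFD (red, n = 37). Each point is a pool of a strain, grey lines join the arrays of a strain, and the black bar is the mean with SD. *Lep* shows the clearest shift upward and *Cfd* the clearest shift downward, while the diets overlap for every gene.

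Leptin had the largest difference. *Lep* scores on CD ran from 7.15 (BXD55) over a median of 8.13 to 10.42 (BXD66), and on HFD from 8.10 (BXD49) over 10.01 to 11.33 (BXD65). The diets overlapped, but 36 of 37 HFD arrays lay above the CD median, 9 lay above the highest CD array and 19 CD arrays lay below the lowest HFD array. The mean was 8.37 ± 0.91 (SD, n = 42) on CD and 9.95 ± 0.73 (SD, n = 37) on HFD, and the limma difference was 1.58 ± 0.19 units (SE, adjusted p = 5.02e-11). Within strains *Lep* was higher on HFD in 35 of 37, with differences from -1.19 in BXD98 to 3.50 in BXD51. The exceptions were BXD98, which went from 10.14 to 8.96, and BXD66, which went from 10.42 to 10.29, and both were among the highest of the CD arrays. On CD the strains fell into separate clusters, with 33 between 7.15 and 8.85 and 9 between 9.27 and 10.42. The 9 were BXD60, BXD65, BXD66, BXD68, BXD69, BXD79, BXD85, BXD92a and BXD98. Neither parent was among them, with 8.12 in C57BL/6J and 7.64 in DBA/2J, and on HFD these were at 10.01 and 9.77.

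Adiponectin rose by less and in fewer strains. *Adipoq* ran from 8.57 (BXD50) over a median of 9.71 to 11.22 (BXD56) on CD and from 8.98 (BXD71) over 10.29 to 11.71 (BXD79) on HFD, so the ranges largely overlapped and 28 HFD arrays lay above the CD median. The means were 9.72 ± 0.60 (SD, n = 42) and 10.26 ± 0.68 (SD, n = 37), and the limma difference was 0.54 ± 0.14 units (SE, adjusted p = 0.00143). It was higher on HFD in 26 of 37 strains, and the differences ran from -1.09 in BXD49 to 1.61 in BXD79. Both parents were higher, by 1.23 in C57BL/6J and 1.39 in DBA/2J. In batch 2 alone the difference of 0.48 units had an adjusted p of 0.0619 by limma.

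Chemerin showed a small, regular rise. *Rarres2* ran from 9.60 (BXD96) over a median of 10.13 to 10.60 (BXD85) on CD and from 9.61 (BXD71) over 10.33 to 10.84 (BXD56) on HFD. The SD was 0.22 units on CD (n = 42) and 0.31 on HFD (n = 37), the narrowest spread of the 6 on both diets. The limma difference was 0.17 ± 0.06 units (SE, adjusted p = 0.0192), and 29 of 37 strains were higher on HFD. In either batch alone the adjusted p from limma was over the threshold, at 0.131 for batch 1 and 0.193 for batch 2, with differences of 0.19 and 0.15.

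Adipsin moved the other way. *Cfd* on CD ran from 8.98 (BXD64) over a median of 9.82 to 11.35 (BXD51), and on HFD from 8.46 (BXD69) over 9.30 to 10.32 (BXD79). Of the HFD arrays, 34 lay below the CD median and 13 below the lowest CD array, and 7 CD arrays lay above the highest HFD array. The means were 9.89 ± 0.58 (SD, n = 42) and 9.29 ± 0.44 (SD, n = 37), and the limma difference was -0.61 ± 0.11 units (SE, adjusted p = 1.15e-05). *Cfd* was lower on HFD in 31 of 37 strains, most in BXD43, where it went from 10.79 to 8.82. The 6 strains with a higher score on HFD were BXD66, BXD68, BXD79, BXD85, BXD97 and BXD98, and in BXD79 it went from 9.21 to 10.32. All of these but BXD97 were in the cluster with high *Lep* on CD. C57BL/6J went from 10.81 to 9.41 and DBA/2J from 9.60 to 9.10. Within batches the limma difference was -0.66 in batch 1 and -0.56 in batch 2, with adjusted p-values of 0.00401 and 0.00733.

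Resistin and retinol binding protein did not pass. *Retn* ran from 9.19 (BXD64) over a median of 10.03 to 11.81 (BXD56) on CD and from 9.16 (BXD71) over 10.32 to 11.38 (BXD79) on HFD, and the ranges overlapped almost wholly. Its limma difference was 0.25 units with a 95% interval from 0.01 to 0.49 (adjusted p = 0.0934), and 24 of 37 strains were higher on HFD. *Rbp4* ran from 7.66 (BXD79) over a median of 8.13 to 9.74 (BXD56) on CD and from 7.71 (BXD80) over 8.15 to 9.30 (BXD51) on HFD. Its limma difference was 0.01 units with a 95% interval from -0.15 to 0.18 (adjusted p = 0.927), and it was higher on HFD in 17 strains and lower in 20. The values for *Rbp4* thus spread in both directions, from -0.83 in BXD66 to 1.11 in BXD79.

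On CD, 3 strains stood apart for *Rbp4*, which is also a liver transcript. BXD56, BXD51 and BXD66 had 9.74, 9.22 and 8.98 units, and the other 39 lay between 7.66 and 8.53. The mean of 7 liver markers was 9.04 in BXD51 and 8.95 in BXD66 on CD and 8.87 in BXD51 on HFD, and no other array exceeded 7.94. Over both diets this mean ran from 7.29 to 9.04 on CD and from 7.09 to 8.87 on HFD, and 3 of the 7 markers fell in HFD and none rose, against 19.3% of all probesets lower and 18.9% higher. Without BXD51 and BXD66 5 of 7 fell, against 18.4% of all probesets. With strain as a replicate block 5 of 7 fell, against 20% of all probesets. Without BXD51 and BXD66 the *Rbp4* difference was 0.03 units (limma, adjusted p = 0.791). BXD56 was not high for liver markers. It had on CD the highest mean of the 12 fatty acid synthesis genes, 11.06 against at most 10.26 elsewhere, with *Fasn* (fatty acid synthase) at 12.70, *Acaca* (acetyl-CoA carboxylase) at 11.04 and *Elovl6* (a fatty acid elongase) at 11.22. The same array had the highest CD scores for *Adipoq* and *Retn*, while its *Lep* score of 7.95 was below the CD median. The part of liver or fat RNA in these *Rbp4* scores was not tested.

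**Figure D2:**
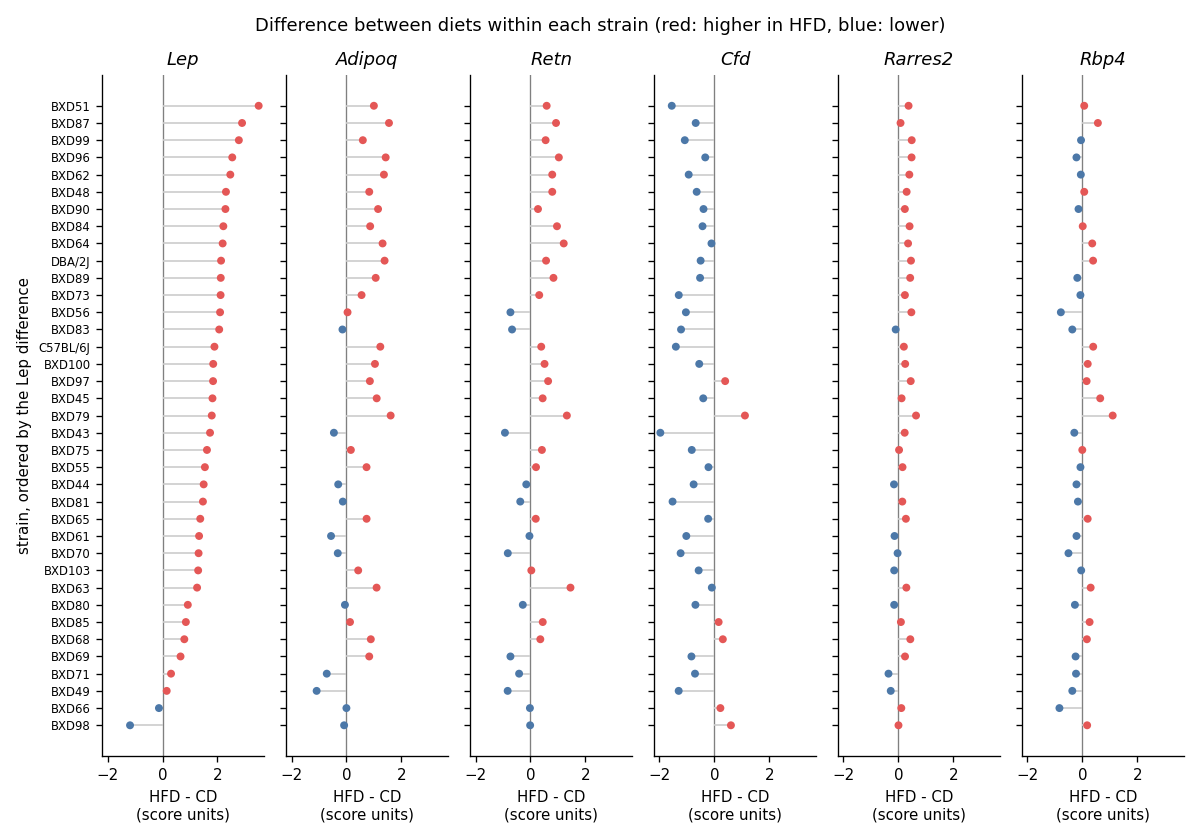
Difference between diets, HFD minus CD in score units, for each of the 37 strains with both arrays, in the same strain order (by the *Lep* difference) in all 6 panels. Red points are higher and blue points lower in HFD. *Lep* lies to the right of 0 in 35 strains and *Cfd* to the left in 31.

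Strain by strain, the opposite movement of leptin and adipsin was the usual pattern. *Lep* was higher and *Cfd* lower on HFD in 31 of 37 strains, and 22 of these also had higher *Adipoq*. Since *Lep* was higher in 35 strains and *Cfd* lower in 31, most strains had to show both. The *Cfd* difference was the lowest of the 6 in 30 strains and the *Lep* difference the highest in 32. *Adipoq* and *Retn* had the same sign in 35 strains. In 9 strains *Lep* was higher while *Adipoq* was lower. Only 4 strains were higher for all 6 genes, and none was lower for all 6. BXD79 had the highest difference for *Adipoq*, *Cfd*, *Rarres2* and *Rbp4*, at 1.61, 1.11, 0.65 and 1.11 units, and BXD51 combined the highest *Lep* difference with a *Cfd* difference of -1.55.

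The diet difference of *Cfd* was set against that of each other adipokine within the 37 strains. Since *Cfd* was singled out with its fall already known, these contrasts are a description and no p-value is given. The *Cfd* difference was below the *Lep* difference by a mean of -2.22 ± 1.28 units (SD) and below it in 35 strains. Against *Adipoq* the contrast was -1.14 ± 0.77 (33 strains), against *Retn* -0.85 ± 0.64 (35 strains), against *Rarres2* -0.79 ± 0.63 (33 strains) and against *Rbp4* -0.60 ± 0.59 (32 strains). Probes differ in how far a score moves with the amount of RNA, so the sizes compare scores rather than molecules.

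Markers of fat cells moved with diet in the same pools. Of 16 adipocyte markers, none of them an adipokine of this set, 13 rose in HFD and none fell, against 18.9% of all probesets higher and 19.3% lower, with a median difference of 0.29 units. *Cidec*, a lipid droplet protein, rose by 0.75 ± 0.14 units (SE, limma adjusted p = 6.2e-06), *Adig* (adipogenin) by 0.51 ± 0.07 (adjusted p = 2.41e-08), *Tusc5* (a regulator of glucose transporter traffic in fat cells) by 0.48 ± 0.08 (adjusted p = 1.95e-07) and *Plin1*, which coats the lipid droplet, by 0.37 ± 0.10 (adjusted p = 0.00123). *Plin4*, *Adrb3* and *Lpl* did not pass. The mean of the 16 ran from 9.23 over a median of 9.63 to 10.35 on CD and from 9.36 over 9.95 to 10.48 on HFD, and was higher on HFD in 31 of 37 strains. Scores have no zero, so no marker can be called absent. The 5 brown fat markers gave 0 calls in either direction by limma, and 0 of 5 had an unadjusted p below 0.05. Single HFD arrays stood apart for *Ucp1*. This gene, which encodes the uncoupling protein of brown fat, was at 9.94 in DBA/2J, 9.17 in BXD66 and 8.68 in BXD55, against a median of 6.61 over all arrays and at most 8.09 on any other. Their brown fat marker means were 8.32, 7.97 and 7.74, but CD arrays of BXD56 (7.79) and BXD100 (7.72) lay close to BXD55. Without these 3 strains the same number of adipokines passed, 3 higher and 1 lower, with *Lep* at 1.62 and *Cfd* at -0.64 units.

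**Figure D3:**
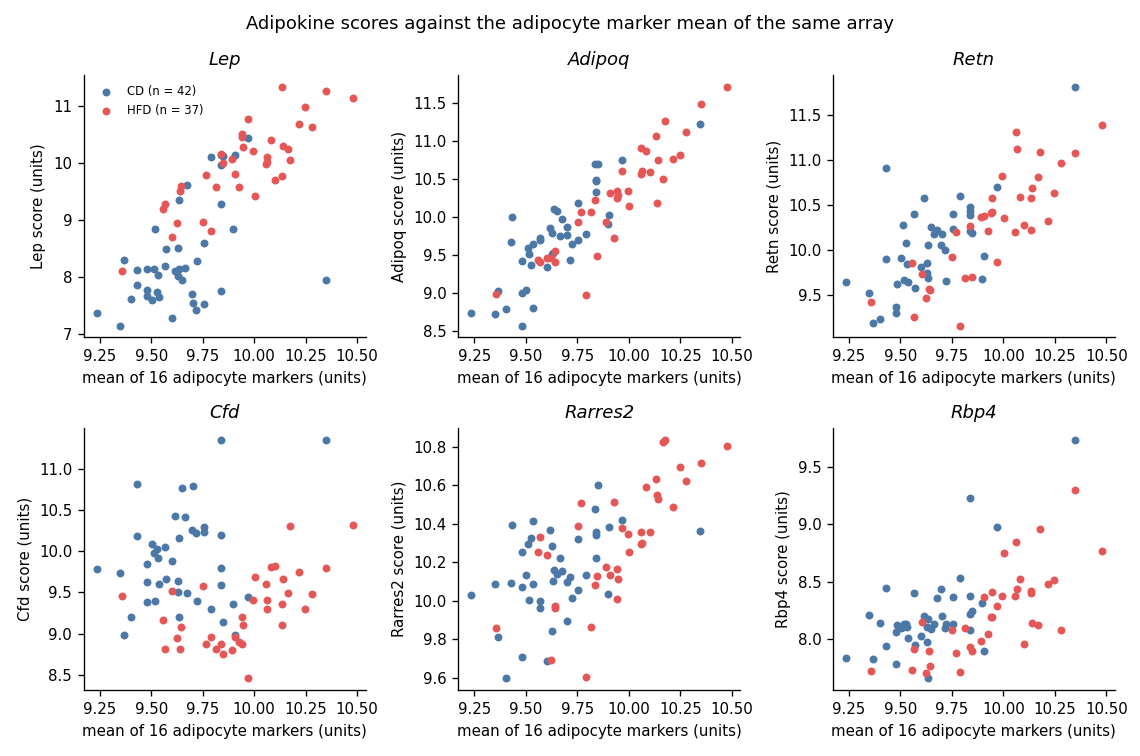
Score of each adipokine (units) against the mean of 16 adipocyte markers on the same array (units), with CD arrays in blue (n = 42) and HFD arrays in red (n = 37). At a given marker mean, *Lep* points of HFD lie mostly above those of CD and *Cfd* points of HFD below them, while for *Adipoq* the diets follow a common band.

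The diet difference was therefore also fitted with the adipocyte marker mean as a further term. The markers may respond to diet themselves, so this describes how the scores move beside each other. The fit takes a common slope on the marker mean for both diets and for the separate CD clusters of strains. Whether a common slope holds for each gene was not tested. With the term, *Lep* was still higher in HFD by 0.87 ± 0.17 units (SE, limma adjusted p = 6.07e-05). *Cfd* was lower, at -0.86 ± 0.13 (adjusted p = 1.92e-07), beside -0.61 without the term. *Adipoq*, which had risen, was at -0.21 ± 0.08 (adjusted p = 0.0524), and *Rarres2* was at -0.05 ± 0.06 (adjusted p = 0.537), so neither passed. *Retn* was lower, at -0.30 ± 0.09 (adjusted p = 0.0109), and so was *Rbp4*, at -0.34 ± 0.07 (adjusted p = 0.00015). This made 4 of 6 called, 1 higher and 3 lower, where 28% of all probesets were called with the term, 13.7% higher and 14.2% lower. With *Plin1* alone in place of the mean, *Retn* did not pass (-0.14, adjusted p = 0.113), and *Adipoq* and *Rarres2* had small differences of the other sign (0.08 and 0.02).

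**Figure D4:**
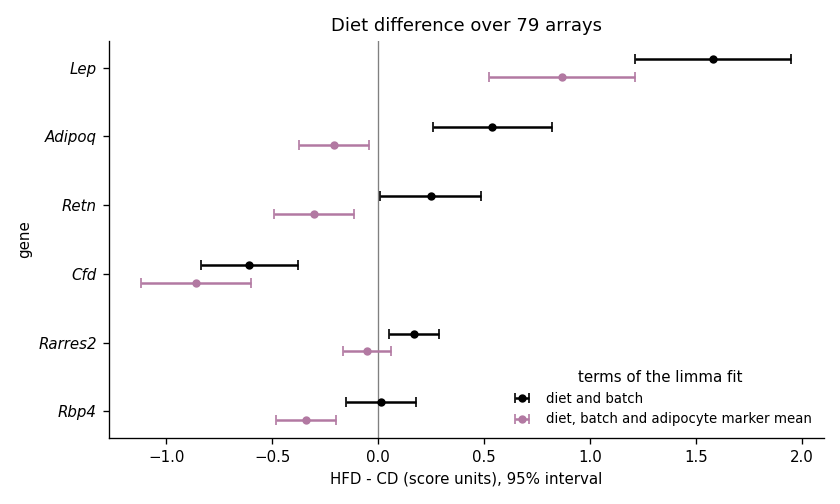
Diet difference (HFD minus CD, score units) of each adipokine over 79 arrays with its 95% interval, from the limma fit with diet and batch (black) and with the adipocyte marker mean added (purple). *Lep* stays to the right and *Cfd* to the left of 0 in both fits, while *Adipoq*, *Retn*, *Rarres2* and *Rbp4* move to the left with the added term.

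The adipokine transcripts varied together across strains. Correlations were taken after batch means were removed, with two-sided permutation tests of 100000 draws, for which 1e-05 is the smallest p (all orders under 10 strains), and Benjamini-Hochberg adjustment over 70 relations. On HFD, 14 of 15 pairs passed and all 14 were positive, from r = 0.572 to r = 0.881. *Adipoq* and *Retn* were the closest pair (r = 0.881, rho = 0.857, permutation p = 1e-05 for both, adjusted p = 3.89e-05 and 4.12e-05), with r = 0.882 in batch 1 and 0.885 in batch 2, and r = 0.848 without the 2 strains farthest from the *Adipoq* median. *Lep* and *Adipoq* had r = 0.842 and rho = 0.836 (permutation p = 1e-05 for both, adjusted p = 3.89e-05 and 4.12e-05), with 0.827 and 0.854 within batches and 0.822 without the 2 farthest strains. The pair that did not pass was *Lep* with *Cfd* (r = 0.220, rho = 0.215, permutation p = 0.191 and 0.2, adjusted p = 0.229 and 0.242). *Cfd* did correlate with *Adipoq* on HFD (r = 0.60, rho = 0.582, permutation p = 0.00011 and 0.00022, adjusted p = 0.000285 and 0.00057), and r was 0.728 and 0.546 within batches and 0.522 without the 2 farthest strains.

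On CD, no pooled r was computed for *Lep* or *Rbp4*, whose strains fell into separate clusters. Of the 6 pairs among the other 4 genes, 4 passed and were positive. *Adipoq* and *Retn* again had the highest value (r = 0.765, rho = 0.751, permutation p = 1e-05 for both, adjusted p = 3.89e-05 and 4.12e-05), with 0.701 and 0.806 within batches and 0.690 without the 2 farthest strains. *Retn* and *Cfd* had r = 0.595 and rho = 0.482 (permutation p = 8e-05 and 0.00137, adjusted p = 0.000243 and 0.00266), with 0.564 and 0.620 within batches and 0.427 without the 2 farthest strains. *Adipoq* and *Cfd* had r = 0.315 (adjusted p = 0.0622, permutation), and *Cfd* and *Rarres2* had r = 0.182 (adjusted p = 0.281, permutation). In the lower Lep cluster of 33 strains, *Lep* and *Adipoq* had r = 0.367 and rho = 0.427 (permutation p = 0.0356 and 0.0138, adjusted p = 0.0566 and 0.0236), and r passed in 4 of 5 alternatives, between 0.375 and 0.417, but not after quantile normalization (0.355). *Lep* and *Cfd* had r = -0.206 over the same strains and -0.354 over the 9 of the higher cluster, and neither passed (adjusted p = 0.281 and 0.383, exact permutation for the 9). These values leave out the step between the clusters, which was not tested. Of the 9, all but BXD60 had a *Cfd* score below the CD median of 9.82. Among the 39 strains of the lower *Rbp4* cluster, *Rbp4* correlated with *Retn* (r = 0.590, rho = 0.565, permutation p = 0.0001 and 0.00031, adjusted p = 0.000269 and 0.0007), with 0.684 and 0.499 within batches and 0.504 without the 2 farthest strains. Its r with *Adipoq* also passed (0.368, adjusted permutation p = 0.0356), but not without the 2 farthest strains (0.242, adjusted permutation p = 0.212). With *Cfd* (r = 0.279) and *Rarres2* (r = 0.104) it did not pass. A test of the difference in r between diets, run for the 6 pairs open to it by exchanging the diets of strains and added after the values were seen, passed for none. *Cfd* with *Rarres2* came nearest, at 0.196 on CD and 0.572 on HFD over the same 37 strains (permutation p = 0.0378, adjusted p = 0.227).

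**Figure D5:**
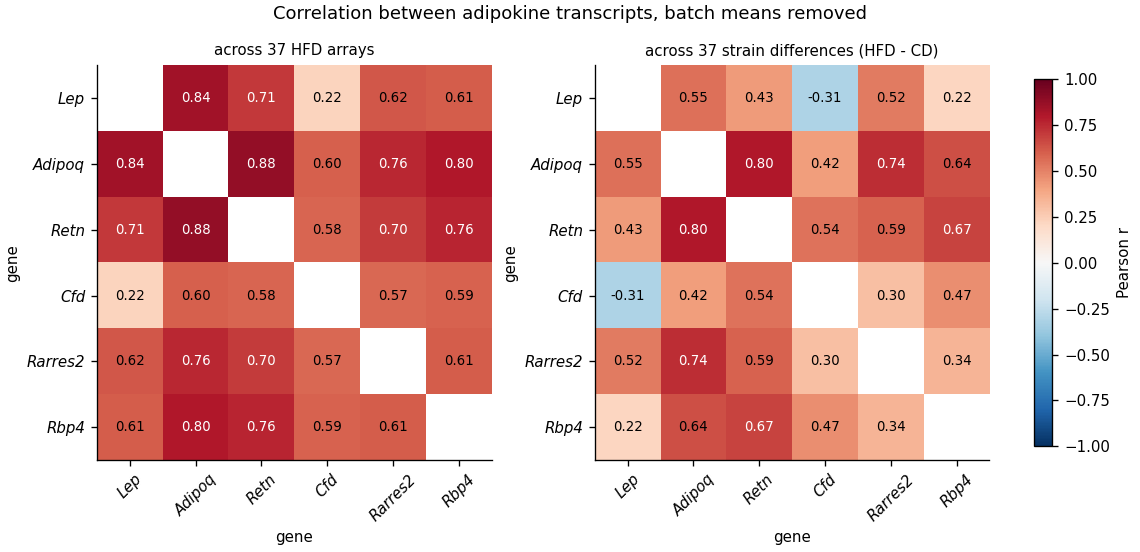
Pearson r between adipokine transcripts across 37 HFD arrays (left) and across the 37 strain differences between diets (right), after batch means were removed. All pairs on HFD are positive with the lowest at *Lep* and *Cfd* (0.220), and the same pair is the one below 0 for the differences (-0.309).

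The differences between diets also moved together from strain to strain. Of 15 pairs of differences, 11 passed and were positive. One of the 11, *Cfd* with *Rbp4* (r = 0.466, adjusted permutation p = 0.00608), did not pass without the 2 farthest strains (r = 0.285, adjusted permutation p = 0.15), which left 10, and passed in the other 4 alternatives, with r up to 0.598 without BXD51 and BXD66. The highest was *Adipoq* with *Retn* (r = 0.801, rho = 0.804, permutation p = 1e-05 for both, adjusted p = 3.89e-05 and 4.12e-05). Their r was 0.809 and 0.884 within batches, 0.682 over the 8 strains whose arrays were in different batches, and 0.779 without the 2 farthest strains. *Adipoq* with *Cfd*, whose means moved in opposite directions, had a positive r of 0.418 and rho of 0.412 (permutation p = 0.00953 and 0.0111, adjusted p = 0.0167 and 0.0195), with 0.413, 0.585 and 0.635 in the same batch groups and 0.386 without the 2 farthest strains. Strains with a higher *Adipoq* difference thus tended to have a higher *Cfd* difference. *Lep* with *Cfd* had r = -0.309 and rho = -0.182, which did not pass (permutation p = 0.0628 and 0.282, adjusted p = 0.0898 and 0.324), and r was -0.104 without the 2 farthest strains. *Lep* and *Adipoq* had r = 0.552 and rho = 0.587 (permutation p = 0.0003 and 0.00025, adjusted p = 0.000656 and 0.000625), with 0.591 and 0.564 within batches, 0.066 over the 8 strains in different batches, and 0.571 without the 2 farthest strains.

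Among the 4 genes with a pooled r, the correlation of a strain's level between diets was highest for chemerin. *Rarres2* on CD and on HFD had r = 0.624 and rho = 0.703 over 37 strains (permutation p = 4e-05 and 1e-05, adjusted p = 0.00014 and 4.12e-05), with 0.604 and 0.610 within batches, 0.824 over the 8 strains in different batches and 0.604 without the 2 farthest strains. *Adipoq* had r = 0.376 and rho = 0.337 (permutation p = 0.0219 and 0.0422, adjusted p = 0.0357 and 0.0687), with 0.243 and 0.505 within batches. That relation rested on few strains, since r was 0.257 without the 2 farthest strains (adjusted p = 0.201, permutation) and 0.291 without BXD51 and BXD66 (adjusted p = 0.129, permutation). *Retn* (r = 0.321) and *Cfd* (r = 0.281) did not pass, with adjusted permutation p-values of 0.0755 and 0.122, but *Retn* passed without BXD63 (r = 0.359, rho = 0.330, adjusted permutation p = 0.0478 and 0.0795). The difference in r between genes was not tested.

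On HFD all 6 adipokines correlated with the adipocyte marker mean, from *Cfd* (r = 0.551, rho = 0.587, permutation p = 0.00055 and 0.00022, adjusted p = 0.00113 and 0.00057) to *Adipoq* (r = 0.911, rho = 0.909, permutation p = 1e-05 for both, adjusted p = 3.89e-05 and 4.12e-05). Within batches these were 0.713 and 0.477 for *Cfd* and 0.915 and 0.908 for *Adipoq*, and without the 2 farthest strains 0.440 and 0.920. On CD *Adipoq* had r = 0.834 and rho = 0.772 (permutation p = 1e-05 for both, adjusted p = 3.89e-05 and 4.12e-05), and *Retn* (r = 0.681), *Rarres2* (r = 0.446) and, in its lower cluster of 39 strains, *Rbp4* (r = 0.381, adjusted permutation p = 0.0281) also passed. *Lep* did not pass on CD within its clusters, with r = 0.187 over 33 strains and 0.695 over 9 (adjusted p = 0.327 and 0.0618, exact permutation for the 9), beside 0.825 on HFD. Over the 9 it passed in 2 of 5 alternatives, with r = 0.712 where batch means were kept and r = 0.934 without the 2 farthest strains (exact permutation, adjusted p = 0.0498 and 0.0256). *Cfd* did not pass on CD (r = 0.244, rho = 0.069, permutation p = 0.12 and 0.664, adjusted p = 0.152 and 0.683), and its r was -0.080 without the 2 farthest strains. Whether r with the marker mean differed between diets was not tested.

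For the other 4 adipokines than *Lep* and *Rbp4*, the genes with the most similar scores were found over 79 arrays after the mean of each diet and batch was removed, among 22334 other genes, as a description with no test. *Adipoq* was nearest to *Cidec* (0.904), *Prkar2b*, *Lgals12*, *Aoc3* and *Gnai1*. For *Retn* these were *Cdo1* (cysteine dioxygenase, 0.891), *Plin1*, *Tshr*, *Adipoq* and *Car5b*. *Rarres2* was nearest to *Gnai1* (0.731), *Sncg*, *Fads3*, *Dpt* and *Adipoq*. *Cfd* had *Pck1*, an enzyme of glucose and glycerol synthesis (0.746), *Sik2*, an AMPK-related kinase (0.724), *AU018778*, *Nrg4* and *Slc1a3*. Of these 5, *AU018778* and *Slc1a3* fell in HFD by 0.28 and 0.12 (limma adjusted p = 0.00095 and 0.0428), and *Pck1*, *Sik2* and *Nrg4* had differences of -0.11, 0.05 and 0.11 that did not pass. For *Lep* and *Rbp4*, whose CD strains form clusters, only the 37 HFD arrays were used. *Lep* was nearest to *Npr3*, the natriuretic peptide clearance receptor (r = 0.908), then *Cidec* (0.871), *Hp* (haptoglobin, 0.865), *Fads3* and *Adipoq*. *Rbp4* was nearest to *Orm1* (an acute phase protein, 0.805), *Adipoq* (0.797), *Cdo1*, *Cyp4v3* and *Retn*, and without BXD51 and BXD66 to *Cdo1* (0.798), *Adipoq*, *Retn*, *Orm1* (0.774) and *Scd1*.

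Of 12 receptors and partners of these hormones, 3 rose and 1 fell in HFD, a share near the 38.1% called over all probesets, with a median difference of -0.01 units. *Lepr*, the leptin receptor, fell by 0.20 on the score scale, from 7.47 ± 0.27 (SD, n = 42) to 7.27 ± 0.25 (SD, n = 37; limma adjusted p = 0.00492). *Adipor1* and *Adipor2*, the main adiponectin receptors, had differences of -0.02 and -0.00 (adjusted p = 0.496 and 0.986), whereas *Cdh13* (T-cadherin, which binds adiponectin complexes) rose by 0.17 ± 0.03 (SE, adjusted p = 5.77e-07). *Cap1*, a proposed resistin receptor, rose by 0.16 ± 0.04 (adjusted p = 0.00111). *C3ar1*, the receptor of a complement fragment, rose by 0.44 ± 0.07 (adjusted p = 8.72e-07) in 35 of 37 strains, and is also a gene of macrophages. *Cmklr1*, the chemerin receptor, and *Stra6*, a receptor of retinol binding protein, had differences of 0.03 and -0.06 (adjusted p = 0.522 and 0.124). Of 12 macrophage markers, 7 rose and none fell, against 18.9% of all probesets higher and 19.3% lower, with a median of 0.13 units and a mean level from 7.94 to 8.61 on CD and 8.05 to 8.88 on HFD. Without BXD51 and BXD66, 5 rose and none fell. With the adipocyte marker mean as a term 1 was higher (*Emr1*) and 2 were lower (*Cd14* and *Itgax*), and *C3ar1* was higher by 0.22 (adjusted p = 0.0255). The part of macrophages in the *C3ar1* score was not tested.

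Among 10 genes of the steps after these receptors, 2 rose and 2 fell, also near the share over all probesets (38.1%). *Socs3*, which restrains leptin signalling and is induced by it, rose by 0.18 ± 0.04 (limma adjusted p = 0.000137, units and SE), and *Prkaa1*, a catalytic subunit of AMPK, by 0.13 ± 0.03 (adjusted p = 0.000271). The other catalytic subunit, *Prkaa2*, fell by 0.08 (adjusted p = 0.01), as did *Appl1*, the adaptor of the adiponectin receptors, also by 0.08 (adjusted p = 0.0394). *Jak2* (adjusted p = 0.0536), *Ptpn1* (adjusted p = 0.0557) and *Stat3* did not pass. With strain as a replicate block, which pairs the arrays of a strain, 6 of the 10 were called, 2 higher and 4 lower, and *Jak2* (adjusted p = 0.00814) and *Ptpn1* (adjusted p = 0.0453) passed. Without BXD63 the counts were also 2 higher and 4 lower. With the adipocyte marker mean as a term 1 of the 10 passed, *Socs3* (0.18, adjusted p = 0.0031), where 28% of all probesets were called.

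Of 9 other genes of the alternative complement pathway, 1 rose in HFD and none fell, against 18.9% of all probesets higher and 19.3% lower, with a median of -0.03 units. *Cfb*, complement factor B, the substrate of adipsin, rose by 0.30 ± 0.05 units (SE, limma adjusted p = 6.04e-07) in 34 of 37 strains. *C3*, the central component, had a difference of -0.05 (adjusted p = 0.508). Of 15 other proteins that fat secretes, 3 rose and 1 fell, with a median of 0.06 units, and 3 of 15 is close to the 18.9% of all probesets that were higher. With strain as a replicate block 5 rose and 1 fell, where 20.7% of all probesets rose, and median centring also gave 5 and 1, where 23.1% rose. *Hp* rose by 0.78 ± 0.17 (adjusted p = 8.2e-05), *Angptl4*, an inhibitor of lipoprotein lipase, by 0.54 ± 0.10 (adjusted p = 6.51e-06) and *Sfrp5*, a Wnt antagonist, by 0.34 ± 0.05 (adjusted p = 2.38e-07), while *Itln1* (intelectin) fell by 0.21 (adjusted p = 1.81e-06). The *Itln1* scores were low, with means of 5.96 on CD and 5.75 on HFD beside an array mean of 8.0. *Nampt* and *Apln*, which encode visfatin and apelin, did not pass (adjusted p = 0.119 and 0.0905), and *Nampt* did with strain as a replicate block (adjusted p = 0.0254), as did *Agt* (angiotensinogen, adjusted p = 0.0513 without the block and 0.00831 with it). With the adipocyte marker mean as a term, *Hp* (0.06, adjusted p = 0.793), *Angptl4* (0.16, adjusted p = 0.194) and *Cfb* (0.12, adjusted p = 0.0553) did not pass, while *Sfrp5* (0.15, adjusted p = 0.0202) and *Itln1* (-0.16, adjusted p = 0.00216) did. *Nrg4* and *Apoe* were then lower, both at -0.18 (adjusted p = 0.00507 and 0.00357), which made 1 higher and 3 lower of the 15. Of all probesets, 13.7% were higher and 14.2% lower with this term.

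Of 12 genes of fatty acid synthesis, 1 rose and 2 fell in HFD, where 38.1% of all probesets were called. With strain as a replicate block 2 rose and 2 fell, since *Scd2* passed (adjusted p = 0.0109 against 0.0736 without the block). The block fit called 40.6% of all probesets. *Acaca* fell by 0.25 and *Elovl6* by 0.27 (limma adjusted p = 0.00337 and 0.026), *Elovl5* rose by 0.16 (adjusted p = 0.00679), and *Fasn* had a difference of -0.22 that did not pass (adjusted p = 0.141). With the adipocyte marker mean as a term, 4 of the 12 were lower and none higher, with a median of -0.07 units, where 14.2% of all probesets were lower. *Acaca*, *Elovl6* and *Fasn* then stood at -0.47, -0.54 and -0.61 units (limma adjusted p = 8.95e-07, 8.47e-05 and 9.76e-05) and *Thrsp* at -0.33 (adjusted p = 0.0296). *Scd2*, *Me1*, *Elovl5* and *Mlxipl* stood at 0.12, 0.08, 0.06 and -0.00, and did not pass. The CD array of BXD56 had the highest scores of *Acaca*, *Elovl6* and *Fasn*, and the highest adipocyte marker mean on CD. Both fits include this array, and no fit without it was run, so its part in these differences was not tested. Of other cell types, 3 of 10 fibroblast and progenitor markers, 3 of 7 endothelial markers, 1 of 11 muscle fibre markers and 3 of 8 blood and nerve markers rose, and 1 blood and nerve marker fell, beside 18.9% of all probesets higher and 19.3% lower.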

How the data were processed

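The authors ran Affymetrix Mouse Gene 1.0 ST arrays on pooled quadriceps RNA, and the submitters' processing notes name Affymetrix Expression Console. The deposited values are a score per probeset with a mean of 8.0 and an SD of 2.0 on every array. The log base, the summarization and any batch correction are not given in the sources used here. Array medians lay between 7.783 and 7.922, single values between 2.628 and 16.107, and the correlation between arrays between 0.961 and 0.992. There is no read depth here, and precision is limited by how many arrays there are. BXD92a is the one sample whose title matches the CD column that reads BXD92.

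All 35556 probesets were fitted with limma 3.58.1 (lmFit and eBayes, R 4.3.3), with diet and batch as terms. The batches are RNA extraction and array runs at 2 times, batch 1 holding 18 CD and 17 HFD arrays, and batch 2 holding 24 and 20. The batch term called 0 probesets by limma, and none (0) had an unadjusted p under 0.05, the smallest being 0.266. Batch means were thus nearly equal in the deposited values already, and the term tests nothing about batch in the RNA. The labels give the strain, which pairs the arrays of the 37 strains. Deviations from the diet means correlated within a strain at a median r of 0.205 (-0.131 to 0.392, above 0.1 in 33), against -0.007 between strains. A gene with several probesets was represented by that with the highest mean. Separate clusters of strains were taken where the BIC of a mixture of 2 normals was lower by 10 or more, with Ashman's D above 2, and clusters under 6 strains gave no r. The p-values measure the spread between strain pools. Fits and permutation tests were tested on simulated data. Other work used Python 3.11.15 with matplotlib 3.10.9, scikit-learn 1.9.0, scipy 1.17.1, pandas 2.3.3 and numpy 2.4.6.

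The adipokines, the 140 genes of the lists and the tests were chosen with earlier results of these data known. The rule for names took the adipokines, the called list genes with the largest difference (up to 4 a list) and defining genes of a list that were not called, the 5 nearest genes of each adipokine, the strains with extreme values, both parents and BXD63. Genes named beyond it were chosen after their values were seen, as were the alternatives without BXD51 and BXD66 and without DBA/2J, BXD55 and BXD66, and the nearest genes within HFD. A list gene that is not named in the text is included in the counts and is not reported by itself here. All 140 list genes were on the array, and 138 were current symbols and 2 synonyms in a RefSeq gene table. Promoters came from RefSeq on GRCm38.p6, which held 5 of the 6 adipokines, and the array table names no build. Other alternatives were strain as a block, no batch term, single batches, other sets of strains, limma-trend, the methods' t-test, median centring, quantile normalization and the removal of dim probesets. Each adipokine had 1 probeset, so a mean over probesets was not run.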

Additional observations from a re-analysis of the deposited data

How the results depend on the processing

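*Lep* and *Cfd* kept their direction and call in all 14 alternatives, between 1.505 and 1.678 and between -0.66 and -0.56 units, and *Retn* was never called (adjusted p from 0.0544 to 0.374). In batch 2 alone, where 24.4% of all probesets were called, *Adipoq* (0.48) and *Rarres2* (0.15) were not, which left 2 of 6 called and 1 higher. In batch 1 alone *Rarres2* (0.19) was not called. These fits have fewer arrays. *Rbp4*, never called, was at -0.0099 units with strain as a replicate block, -0.0092 without the parents and -0.0036 with paired strains alone. Strain as a replicate block changed no call of an adipokine, and called 14441 probesets in all against 13551. Over all probesets, batch 1 alone called 4491, the removal of dim probesets 5292 of 17778, and batch 2 alone 8691. Median centring moved the split from 6703 higher and 6848 lower to 8199 and 5758, with a median shift of 0.016 units. The methods' t-test called 16450 probesets at the unadjusted threshold and 13650 after Benjamini-Hochberg.

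With the adipocyte marker mean as a term, *Plin1* alone gave 0.0779 for *Adipoq*, -0.14 for *Retn* (not called) and 0.0157 for *Rarres2*, and the replicate block gave 0.0389 for *Rarres2*. Under the block with this term 7282 probesets were called, against 9949. Of the correlation counts, that between diets, 2, became 1 without BXD51 and BXD66 and 3 without BXD63, and that of differences, 11, became 10 without the 2 farthest strains. Without the 2 farthest strains *Adipoq* left the count between diets, and *Rbp4* in its lower cluster entered it. For *Rbp4* r went from 0.207 to 0.421 (adjusted permutation p = 0.281 and 0.0285). Reversed single relations, none past the threshold, were *Lep* with *Rbp4* in the 8 strains high for *Lep* on CD (-0.073) and *Cfd* with the marker mean on CD (-0.080), both without the 2 farthest strains. In the lists, median centring called 2 genes of the steps after adipokine receptors and 2 muscle fibre markers, where it called 39.3% of all probesets. For the steps after adipokine receptors, the replicate block and the fit without BXD63 each called 6 against 4, beside 40.6% and 39.6% of all probesets. The replicate block and the fit without BXD51 and BXD66 each called 5 of 7 liver markers, where these fits called 40.6% and 36.4% of all probesets. The cause of these changes was not tested. Arrays limit the resolution of small differences: the 95% interval of *Rbp4* spans -0.15 to 0.18 units.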
